A study of Mus musculus with 6 samples.

Results

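The genes described here encode enzymes that cut the extracellular matrix or the outer part of membrane proteins, together with their tissue inhibitors. They are a fixed list of gene names, with no threshold on measured values: the matrix metalloproteases Mmp9, Mmp12, Mmp13, Mmp14 and Mmp19, the ADAM proteases Adam8 and Adam17, the inhibitors Timp1 and Timp2, and Plau, which encodes urokinase. All 10 were among the 46095 genes of the count table, and 9 of the 10 passed the filter on low counts that left 14120 genes for testing. The RNA came from BV2, an immortalized line of mouse microglia, so the libraries are samples of 1 cell line and not of brain tissue. In the CON group, 3 libraries came from cells that received no added protein, and in the sTREM-1 group, 3 libraries came from cells exposed for 6 h to 1 μg/mL of the recombinant protein sTREM-1. sTREM-1 is the soluble form of a receptor of myeloid cells that amplifies inflammatory signalling. The comparison asks which transcripts differ between treated and untreated cells.

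Matrix metalloproteases are zinc enzymes that are made as inactive precursors and are switched on outside the cell, often by another protease. TIMP proteins bind the active site of the mature enzymes, and urokinase starts a parallel route by turning plasminogen into plasmin, which cuts matrix proteins and activates several metalloprotease precursors. ADAM proteases sit in the membrane and release the outer domains of their targets, and microglia use these systems when they migrate, remodel matrix and release cytokines and receptors. Messenger RNA counts measure none of these activation steps.

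Among the 10 genes, both ADAM transcripts rose after sTREM-1, while Mmp9, Mmp13, Plau and Timp2 fell. Adam17 rose 1.22-fold (95% interval 1.18 to 1.26, n = 3 per group) and Adam8 rose 1.09-fold (1.05 to 1.13). Mmp13 fell to 0.729 of its CON level (0.610 to 0.870), Mmp9 to 0.870 (0.814 to 0.931), Plau to 0.881 (0.847 to 0.917) and Timp2 to 0.926 (0.881 to 0.973). Mmp12, Mmp19 and Timp1 did not pass the test, and Mmp14 had too few counts to be tested. The 2 genes of the 9 tested that were called higher stand beside 16.5% of all tested genes, and the 4 called lower stand beside 14.1%, with a median log2 fold change of -0.04 over the 9. A gene was called when its p-value from the quasi-likelihood test of edgeR, adjusted by the Benjamini-Hochberg method over all tested genes, was under 0.05.

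Each library held between 40070633 and 45877107 counts, and the spread between libraries of a group was small, with a biological coefficient of variation of 3.99%. At that precision small changes passed the test: the called genes had a median absolute log2 fold change of 0.21, against 0.13 over all tested genes, and the median signed change over all tested genes was -0.0017. None of the called genes among the 10 changed by 1.5-fold or more, while 301 genes of the table were both called and changed by at least that size. The labels do not say whether the 3 libraries of a group came from separate cultures, and the p-values measure the spread between these libraries, which may be technical. The intervals given for the summed counts of Mmp14 cover counting error only and not the spread between libraries.

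The DNA just before the start of 4 of the genes is printed as examples of the sequence before genes that rose (Adam17, Adam8), fell (Mmp13) and were not called (Mmp12). Each line holds the 100 bases before a transcript start from RefSeq on GRCm38.p6, read 5′ to 3′ on the strand of the gene, with motif matches in capitals. The window of Adam17 is chr12:21373633-21373732 on the minus strand and that of Adam8 is chr7:139992563-139992662 on the minus strand. The window of Mmp13 is chr9:7272414-7272513 on the plus strand, and that of Mmp12 is chr9:7347274-7347373 on the plus strand, before the second of its RefSeq starts.
Adam17: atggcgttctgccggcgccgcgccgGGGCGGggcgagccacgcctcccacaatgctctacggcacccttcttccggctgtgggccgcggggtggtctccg
Adam8: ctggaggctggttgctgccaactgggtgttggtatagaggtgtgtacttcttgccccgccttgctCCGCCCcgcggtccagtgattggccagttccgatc
Mmp13: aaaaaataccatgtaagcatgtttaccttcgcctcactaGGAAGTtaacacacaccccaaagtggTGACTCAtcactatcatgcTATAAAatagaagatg
Mmp12: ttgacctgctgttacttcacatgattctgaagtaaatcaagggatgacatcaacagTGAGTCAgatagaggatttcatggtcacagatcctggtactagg

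Over the 250 bases before the start, the Adam17 window had a GC content of 70.4% and that of Adam8 52.8%, while Mmp13 had 40.4% and the second start of Mmp12 39.6%. The median over all RefSeq promoters was 52.4%, and 91.2% of them had a lower GC content than Adam17. The search covered 4 motifs on both strands of those windows of 250 bases, and the capitals mark their matches. The GC box, GGGCGG, was found in the Adam17 window from 75 to 70 bases before the start and in the Adam8 window, on the opposite strand, from 35 to 30 bases before the start. It occurred in 32.7% of all 32817 RefSeq promoters. GC boxes were not limited to the genes that rose. Timp2, which fell, had 68.0% GC and a GC box from 37 to 32 bases before its RefSeq start. Timp1 (54.4% GC, not called) and Mmp14 (55.2% GC, not tested) held GC boxes too. Mmp9 and Plau, which also fell, had no RefSeq entry here, and a relation of these sequences to the direction of change was not tested.

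The Mmp13 window held an AP-1 match, TGANTCA, from 35 to 29 bases before the start, an ETS match, GGAAGT, from 61 to 56 bases, and TATAAA from 16 to 11 bases. Mmp12 held an AP-1 match from 44 to 38 bases before its second start, and an ETS match from 172 to 167 bases, upstream of the bases printed. Its first RefSeq start, the nearer to the start of the gene model, had no AP-1 match and 2 ETS matches, from 45 to 40 and from 88 to 83 bases before it. Timp1, which was not called, held an ETS match too, from 174 to 169 bases before its start. The AP-1 letters occurred in 6.75% of all promoters, the ETS letters in 19.7% and TATAAA in 12.4%. None of the 4 motifs overlapped another within the lines printed. These matches describe letters and do not show that a factor was bound. RefSeq entries were found for 7 of the 10 genes, and Mmp9, Mmp19 and Plau are named only.

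Adam17 encodes TACE, the sheddase that releases tumour necrosis factor and many receptors from the cell surface. It was at 234, 240.3 and 241 counts-per-million (CPM) units in the 3 CON libraries and at 289, 294 and 291 CPM in the 3 sTREM-1 libraries. Every sTREM-1 library lay above every CON library, and the gap between the groups exceeded the range within either one. The means were 239 ± 3.85 and 291 ± 2.74 CPM (SD, n = 3), and the log2 fold change was 0.29 ± 0.02 (SE) with an adjusted p of 1.8e-10 by the edgeR quasi-likelihood test. Ranked by p-value, Adam17 stood at place 189 of the 14120 tested genes, and its absolute change was larger than that of 78.9% of them.

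Adam8 encodes a membrane protease of myeloid cells. Its CPM was 438, 435 and 450.2 in CON and 478, 462 and 498 in sTREM-1. The groups did not overlap, but the lowest treated library was close to the highest untreated library. The means were 441 ± 7.95 and 479.5 ± 18.2 CPM (SD, n = 3), with a log2 fold change of 0.12 ± 0.03 (SE) and an adjusted p of 0.00047 by edgeR. Its change was larger than that of 47.9% of the tested genes, about the middle of the table.

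**Figure D1:**
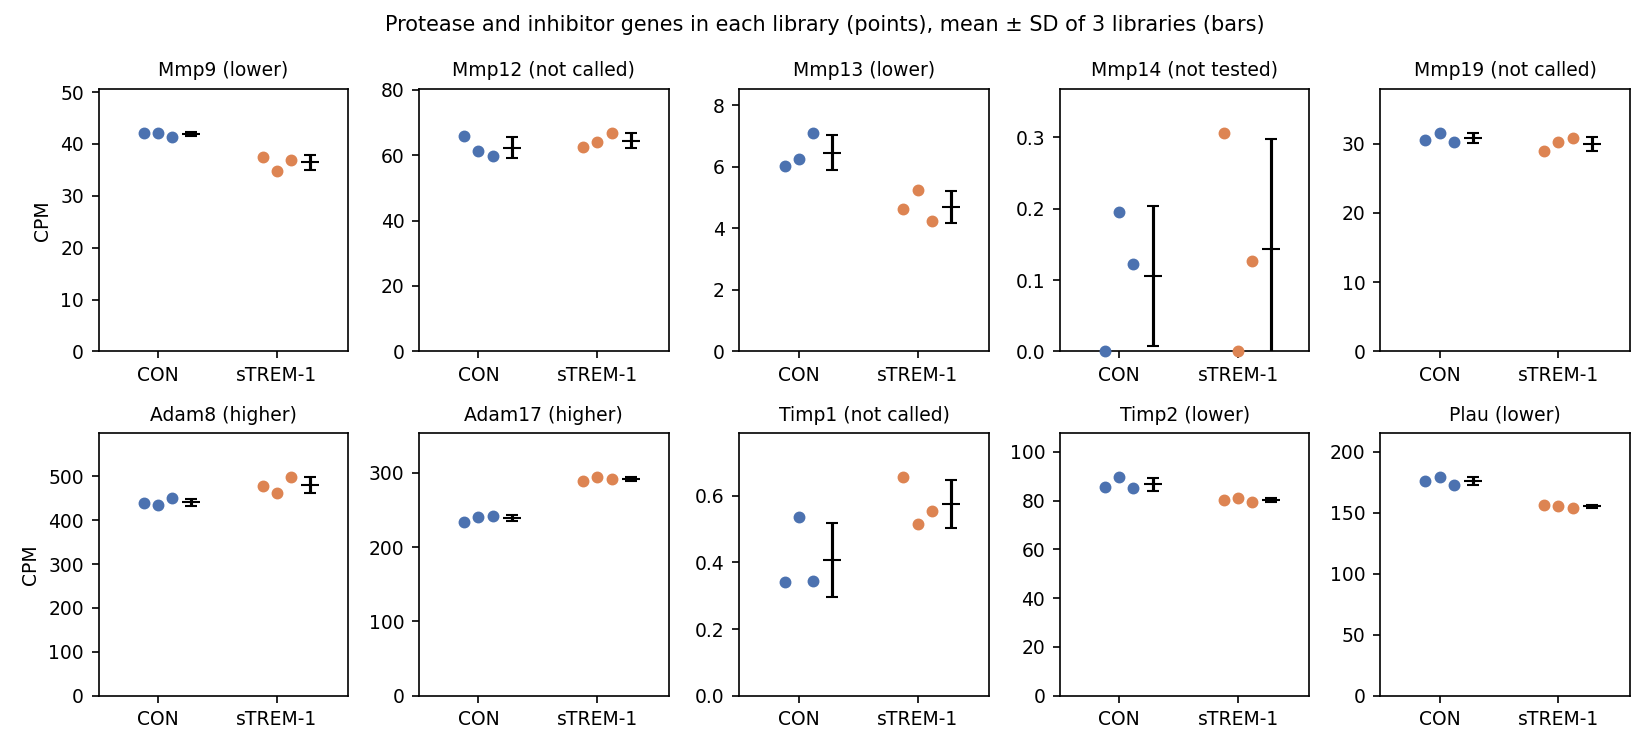
CPM (vertical axes, from 0, 1 scale per gene) of the 10 genes in each CON and sTREM-1 library (points), with the mean and SD of 3 libraries (bars). The groups are apart for Adam8, Adam17, Mmp9, Mmp13, Timp2 and Plau, and share a range for Mmp12, Mmp14, Mmp19 and Timp1.

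Mmp13 encodes collagenase-3, which cuts fibrillar collagen. Its counts were 247, 256 and 290 in CON and 211, 224 and 168 in sTREM-1. In CPM these were 6.03, 6.24 and 7.10 against 4.62, 5.25 and 4.23, with every treated library below every untreated library. The mean fell from 6.46 ± 0.568 to 4.70 ± 0.515 CPM (SD, n = 3), the log2 fold change was -0.46 ± 0.13 (SE), and the adjusted p by edgeR was 0.00538. It was the largest change among the 6 called genes and exceeded that of 90.1% of the tested genes, from a low level.

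Mmp9 encodes gelatinase B, which cuts denatured collagen and basement membrane. Its CPM was 42.1, 42.0 and 41.4 in CON and 37.6, 34.9 and 36.9 in sTREM-1. The CON libraries lay close together and all above the treated libraries, among which replicate 2 was lowest. The mean fell from 41.9 ± 0.387 to 36.4 ± 1.40 CPM (SD, n = 3), a log2 fold change of -0.20 ± 0.05 (SE) with an adjusted p of 0.00141 by edgeR.

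Mmp12 encodes macrophage elastase. Its CPM was 65.8, 61.4 and 59.7 in CON and 62.5, 63.9 and 66.8 in sTREM-1, so the groups shared most of their range. The log2 fold change was 0.05 ± 0.04 (SE), the adjusted p by edgeR was 0.443, and the 95% interval of the fold, 0.974 to 1.10, bounds the change on both sides. Mmp19, a secreted metalloprotease of basement membrane components, was at 30.5, 31.6 and 30.2 CPM in CON and at 28.9, 30.3 and 30.8 CPM in sTREM-1. These libraries overlapped too, with a log2 fold change of -0.04 ± 0.05 (SE), an adjusted p of 0.647 by edgeR and an interval of the fold from 0.904 to 1.05.

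Mmp14 encodes MT1-MMP, a membrane-bound enzyme that activates the precursor of MMP2. It had 0, 8 and 5 counts in CON and 14, 0 and 5 counts in sTREM-1. Each group held a library at 0, and the sums of 13 counts (exact Poisson 95% interval 6.92 to 22.2) and 19 counts (11.4 to 29.7) overlapped. A difference in Mmp14 was not detectable at this depth. Of its 7 protein-coding neighbours within 100 kb, 6 had 418 or more counts and 1 had at most 1 count.

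Timp2 encodes an inhibitor of most metalloproteases that also takes part, with MT1-MMP, in activating the MMP2 precursor. Its CPM was 85.4, 89.7 and 85.0 in CON and 80.2, 81.2 and 79.3 in sTREM-1. The groups did not overlap, and CON replicate 2 stood above the other 2 CON libraries. The mean fell from 86.7 ± 2.59 to 80.3 ± 0.951 CPM (SD, n = 3), a log2 fold change of -0.11 ± 0.04 (SE) with an adjusted p of 0.0157 by edgeR. Without CON replicate 2 the log2 fold change was -0.09 and the adjusted p by edgeR 0.0963, and the call was lost.

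Timp1 encodes an inducible secreted inhibitor with high affinity for MMP9. It had 14, 22 and 14 counts in CON and 30, 22 and 22 counts in sTREM-1, and the groups touched at 22 counts. The means were 0.407 ± 0.112 and 0.576 ± 0.0727 CPM (SD, n = 3). The log2 fold change of 0.50 ± 0.41 (SE) was the largest positive value of the 9 tested genes, with an adjusted p of 0.407 by edgeR, and the interval of the fold from 0.786 to 2.54 left a fall, no change and a doubling all possible.

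Plau encodes urokinase, a serine protease that activates plasminogen. It was at 176, 179 and 172 CPM in CON and at 156, 156 and 154 CPM in sTREM-1. The treated libraries lay close together and all below the untreated ones. The mean fell from 176 ± 3.47 to 155 ± 1.17 CPM (SD, n = 3), with a log2 fold change of -0.18 ± 0.03 (SE) and an adjusted p of 6.5e-06 by edgeR.

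**Figure D2:**
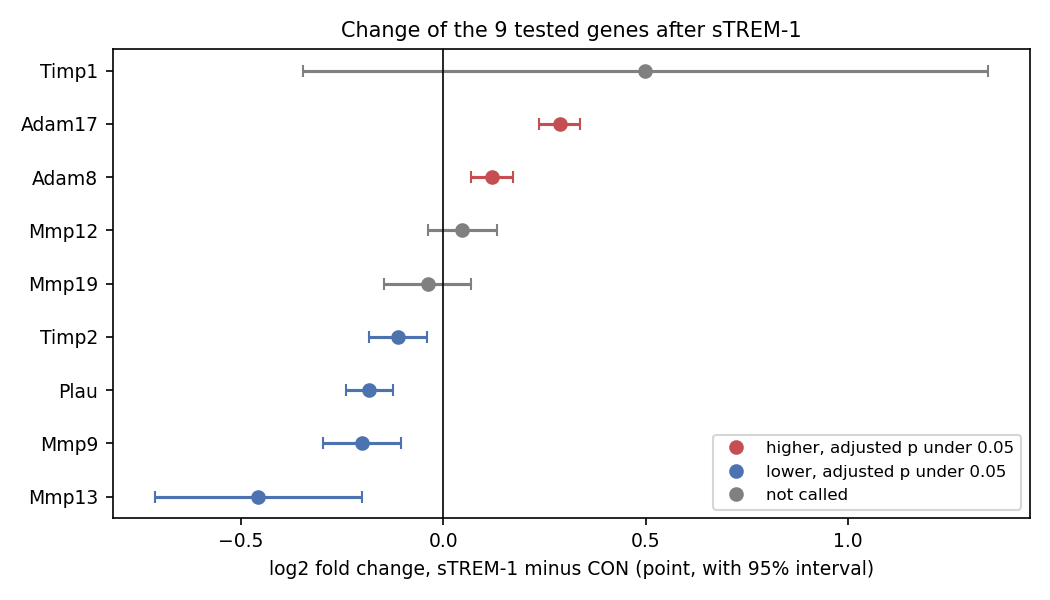
Log2 fold change (horizontal axis, sTREM-1 minus CON) of the 9 tested genes, with 95% intervals from the edgeR fit of 3 libraries per group. Adam17 (0.29) and Adam8 (0.12) lie above 0, Timp2 (-0.11), Plau (-0.18), Mmp9 (-0.20) and Mmp13 (-0.46) below it, and the interval of Timp1 is the widest.

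The CPM groups of 6 of the 9 tested genes did not overlap, the same 6 that were called, and 40.7% of all tested genes had groups that did not overlap. The 3 others, Mmp12, Mmp19 and Timp1, shared part of their range. Their names group the changes by family only in part: of the 4 tested metalloproteases 2 fell and 2 were not called, and of the 2 inhibitors 1 fell and 1 was not called.

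To compare levels between genes, CPM was divided by the exon length of the gene in kilobases (the union of its exons in GENCODE M21). On this scale Adam8 led with 95.1 CPM per kilobase in CON and 103 in sTREM-1, followed by Plau with 74.4 and 65.6, Adam17 with 33.4 and 40.7, and Timp2 with 22.2 and 20.6. Mmp9 came next with 11.8 and 10.3. Adam8 lay above 96.9% and Plau above 95.8% of the 12788 tested genes that had a length.

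Mmp19 (8.71 ± 0.201 CPM per kilobase in CON, SD, n = 3) and Mmp12 (8.61 ± 0.434) followed, and these neighbours in the order did not differ beyond their spread. Mmp13 had 2.42 in CON and 1.76 in sTREM-1, Timp1 had 0.458 and 0.648, and Mmp14 had 0.0178 and 0.0242. With the length of the longest transcript in place of the union of exons, Mmp12 (13.9 in CON) stood above Mmp9 (13.2), so the order of Mmp9, Mmp12 and Mmp19 depends on the length used. By that length Adam17 had 53.4 in CON in place of 33.4 and Adam8 120.3 in place of 95.1, so levels and shares also depend on it. By the union of exons, the share of the summed level of the 10 genes taken by Adam8 was 37.0% in CON and 39.7% in sTREM-1, that of Plau 28.9% and 25.2%, and that of Adam17 12.97% and 15.64%.

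**Figure D3:**
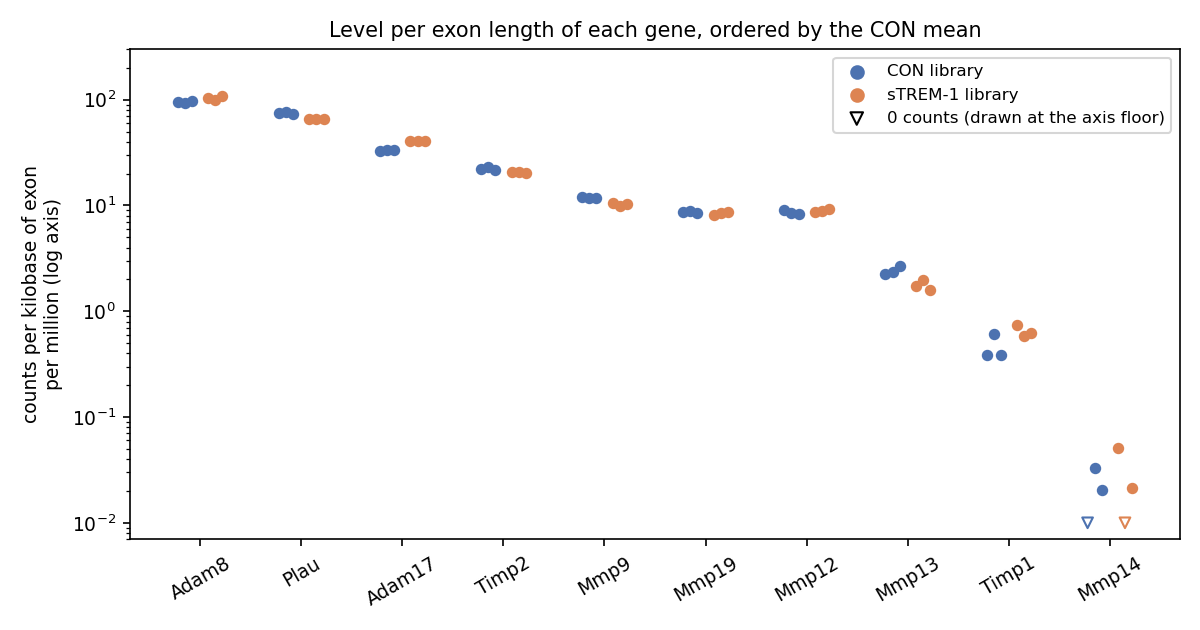
CPM per kilobase of exon (vertical log axis) in each CON and sTREM-1 library (filled points) for the 10 genes, ordered by the CON mean; open triangles at the axis floor mark 0 counts. The levels run from 95.1 for Adam8 to 0.0178 for Mmp14 in CON, and Mmp19 and Mmp12 share a range.

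Ratios of proteases to inhibitors on the same per-length scale are given as values with no test. The summed level of the 5 metalloproteases over that of Timp1 and Timp2 was 1.39 ± 0.0465 in CON and 1.39 ± 0.0359 in sTREM-1 (SD, n = 3). Mmp9 to Timp1 was 27.0 ± 6.34 in CON and 16.0 ± 1.43 in sTREM-1, and its denominator rests on 14 to 30 counts per library.

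Around urokinase, 8 of the 15 listed genes of the plasminogen system were tested, of which 4 rose and 1 fell, with a median log2 fold change of 0.09. Over all tested genes 16.5% were higher and 14.1% lower, and the 1 of 8 that fell is near the latter share. This list too was chosen with earlier results of these data known, so its count that rose is description only. Plaur, the urokinase receptor, had means of 49.5 and 47.2 CPM and was not called (log2 fold change -0.07, adjusted p by edgeR 0.324).

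Among the genes that rose in the plasminogen list, Anxa2 went from 482 to 564 CPM (log2 fold change 0.23) and S100a10, its partner in a cell-surface plasminogen receptor, rose by 0.11 on the log2 scale. Lrp1, a scavenger receptor that takes up proteases bound to their inhibitors, went from 1356 to 1560.5 CPM (0.20). Serpinf2, which encodes the plasmin inhibitor alpha-2-antiplasmin, fell from 0.473 to 0.138 CPM, a level under the 1 CPM required for naming, and it is named because it was the only gene of the list to fall, a choice made after its values were seen. Its call was lost without CON replicate 3, sTREM-1 replicate 2 or sTREM-1 replicate 3, with an adjusted p of up to 0.0980, and that of S100a10 without CON replicate 1 or sTREM-1 replicate 2, up to 0.0723.

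Few of the other metalloproteases were measured. Of 18 further MMP genes, 3 passed the filter and none was called. Among 17 other ADAM genes 7 were tested, 2 rose and none fell, beside 16.5% higher and 14.1% lower over all tested genes. Their median log2 fold change was 0.16, beside -0.0017 over all tested genes. That median is the value of Adam9, and the genes above it were not called. Counts this small are no result about the family. Adam9 rose from 125 to 139.5 CPM (log2 fold change 0.16, adjusted p by edgeR 9.8e-05) and Adam15 from 293 to 307 CPM (0.07, 0.0335). The Adam15 call was lost when CON replicate 2, CON replicate 3, sTREM-1 replicate 1 or sTREM-1 replicate 2 was left out, with an adjusted p of up to 0.146.

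Adam10, the sheddase closest to Adam17 in targets, had means of 144 and 148 CPM and was not called (log2 fold change 0.04, interval of the fold 0.984 to 1.07, adjusted p by edgeR 0.384). In the ADAMTS family of secreted proteases, 5 of 19 genes were tested and 1, Adamts1, rose (261 to 290.1 CPM, 0.15, 3.8e-05). That count is near the 16.5% called higher over all tested genes and is no result about the family. Of the other inhibitors none passed the filter: Timp3, Reck and A2m were listed at 0 in all 6 libraries, and Timp4 had at most 1 count per library.

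Of 16 listed genes that bring these proteases to the membrane or activate them, 10 were tested, 2 rose and 1 fell, with a median log2 fold change of 0.05. These counts are near the shares over all tested genes (16.5% higher, 14.1% lower) and are no result about the list. Bsg, which encodes the metalloprotease inducer basigin, rose from 317 to 366 CPM (log2 fold change 0.21), and Cd44, a hyaluronan receptor that can dock MMP9 at the cell surface, fell from 383 to 346 CPM (-0.15). Frmd8, a partner of the iRhom proteins that keep ADAM17 at the surface, rose by 0.14, a call lost without CON replicate 2, CON replicate 3 or sTREM-1 replicate 1 (adjusted p up to 0.139). Rhbdf2, which encodes iRhom2, the carrier of ADAM17 in myeloid cells, had means of 103 and 96.6 CPM (-0.09, adjusted p by edgeR 0.0675), and Furin, which removes the ADAM17 prodomain, 178 and 182 CPM (0.03, 0.426). Neither was called.

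Of 32 listed membrane proteins that ADAM or MMP enzymes release, 22 were tested, 10 rose and 3 fell, with a median log2 fold change of 0.15. Over all tested genes 16.5% were higher and 14.1% lower, and the count that fell is near that share. The list was chosen with earlier results of these data known, so the count that rose is no test of such targets. Csf1r, the receptor for the growth factor that keeps microglia alive, rose from 521 ± 3.13 to 753 ± 20.5 CPM (SD, n = 3), a log2 fold change of 0.53 with an adjusted p of 2.9e-17 by edgeR. Sorl1, a sorting receptor, rose from 51.3 to 67.3 CPM (0.39), Selplg, the ligand of P-selectin, from 65.1 to 79.9 CPM (0.30), and Lrp1 as above. Kitl, which encodes stem cell factor, fell from 60.8 to 46.1 CPM (-0.40), and Cd44 is in this list too. F11r, a junction protein, fell from 6.13 to 4.89 CPM (-0.33, adjusted p by edgeR 0.0494), a call kept only without CON replicate 1 when single libraries were left out (adjusted p up to 0.219). Transcript levels do not measure how much of these proteins was released.

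Tnf, the best known target of ADAM17, was listed at 0 in all 6 libraries, and all 17 of its protein-coding neighbours in the table within 100 kb had at most 1 count per library, so its listing says nothing about its expression. Trem1, the gene of the membrane receptor whose soluble form was added, had 42, 17 and 29 counts in CON and 32, 25 and 20 counts in sTREM-1. These groups overlapped, and Trem1 was not called (log2 fold change -0.26, adjusted p by edgeR 0.681).

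Among 28 listed matrix proteins that these enzymes cut, 13 were tested, 4 rose and 2 fell, with a median log2 fold change of 0.14. Over all tested genes 16.5% were higher and 14.1% lower, and the count that fell is near that share. This list was also chosen with earlier results of these data known. Lamc1, a laminin chain, fell from 590 ± 10.6 to 492 ± 11.03 CPM (SD, n = 3), a log2 fold change of -0.26, and Thbs1, which encodes thrombospondin-1, fell from 9.39 to 5.62 CPM (-0.74). Spp1, which encodes osteopontin, was far above the other named genes at 20636 CPM in CON and rose by 0.05 on the log2 scale. Dag1, the dystroglycan gene, rose by 0.14, Agrn, the agrin gene, by 0.17 and Col18a1, which encodes the precursor of endostatin, by 0.32. The Agrn call was lost without sTREM-1 replicate 2 (adjusted p by edgeR 0.0815), and that of Col18a1 without CON replicate 1 or sTREM-1 replicate 3 (up to 0.130).

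**Figure D4:**
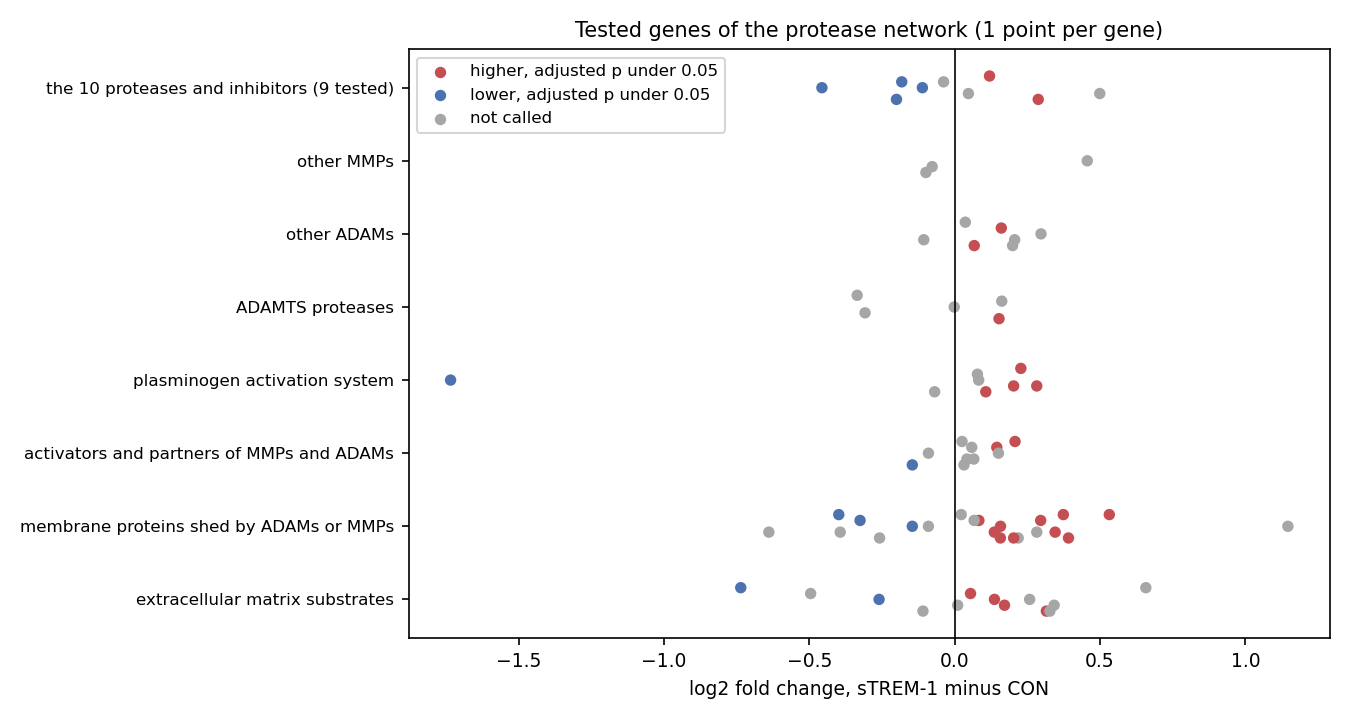
Log2 fold change (horizontal axis, sTREM-1 minus CON) of each tested gene in the protease list and 7 related lists, 1 point per gene, red where called higher, blue where called lower and grey where not called. The list of shed membrane proteins holds 10 higher and 3 lower of 22, and that of the plasminogen system 4 higher and 1 lower of 8. The 9 tested proteases and inhibitors hold 2 upward and 4 downward. Over all tested genes 16.5% were called higher and 14.1% lower. The lists were chosen with earlier results of these data known.

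Several of the 10 genes overlap others, and the strand setting of the counting is not given in the sources used here, so reads of overlapping genes may not have been told apart. In GENCODE M21 on GRCm38, Adam17 (chr12:21323509-21373632, minus strand) shares 311 exon bases with Iah1 on the opposite strand, which had 2818 to 3285 counts per library and changed by -0.14, the direction opposite to Adam17. Mmp19 (chr10:128790910-128800824, plus strand) shares 789 exon bases with Tmem198b on the opposite strand, which had 552 to 731 counts and changed by -0.28 (adjusted p by edgeR 0.00627). Timp1 (chrX:20870166-20874735, plus strand) lies within Syn1 on the opposite strand with 0 shared exon bases. Syn1 had 1069 to 1279 counts per library and changed by -0.21 (adjusted p by edgeR 0.00283). Mmp12 shares 157 exon bases with Mmp1b, which was listed at 0 in all libraries. Adam8 shares 46 exon bases with Gm16201 and Mmp19 shares 212 with Gm47093, and neither neighbour is in the count table. What these overlaps contribute to the counts of Adam17, Mmp19, Timp1, Mmp12 and Adam8 was not tested.

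Mmp13 (chr9:7272514-7283331, plus strand) and Mmp12 (chr9:7344381-7369499, plus strand) lie in the same stretch of chromosome 9, where the collagenase genes are clustered, yet the first fell and the second was not called. The difference between their changes was not tested. Mmp9 is at chr2:164940780-164955850 and Plau at chr14:20836660-20843385, both on the plus strand, Adam8 at chr7:139978932-139992562 and Timp2 at chr11:118301069-118355740, both on the minus strand, and Mmp14 at chr14:54431612-54445364 on the plus strand.

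Markers of microglia and macrophages were present: 11 of 12 were tested, 4 were called higher and 0 lower, beside 16.5% higher and 14.1% lower over all tested genes. The 4 called higher were Csf1r, Trem2, Ptprc and Cx3cr1. The summed level of the markers was 2645 to 2679 CPM in CON and 2908 to 2981 CPM in sTREM-1. Most of the difference in the sum came from Csf1r, given above. Itgam, which encodes CD11b, had means of 385 and 398 CPM, and the means of Cd68 (605 and 589 CPM) and Tyrobp (300.4 and 293 CPM), which were not called, lay the other way. Cx3cr1, P2ry12 and Tmem119, which mark microglia in brain, had group means of 0.668 to 1.77 CPM. Of these, Cx3cr1 was called higher (log2 fold change 0.90, adjusted p by edgeR 0.0156). Its call was lost without CON replicate 1, sTREM-1 replicate 2 or sTREM-1 replicate 3, with an adjusted p of up to 0.116. P2ry12 (0.75, 0.0955) and Tmem119 (-0.02, 0.970) were not called. The markers of this list other than Aif1, Itgam and Csf1r were named after their values were seen. Aif1 was listed at 0 in all 6 libraries, and its 20 protein-coding neighbours in the table within 100 kb had at most 1 count each per library. The summed markers of other cell types were at most 0.479 CPM for astrocytes, 0.328 CPM for neurons, 0.561 CPM for fibroblasts and 0.659 CPM for neutrophils. Those of oligodendrocytes ranged from 5.63 to 7.94 CPM and those of endothelial cells from 1.88 to 2.61 CPM. In bulk RNA, a change in the number of cells in a given state and a change in RNA per cell cannot be told apart.

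**Figure D5:**
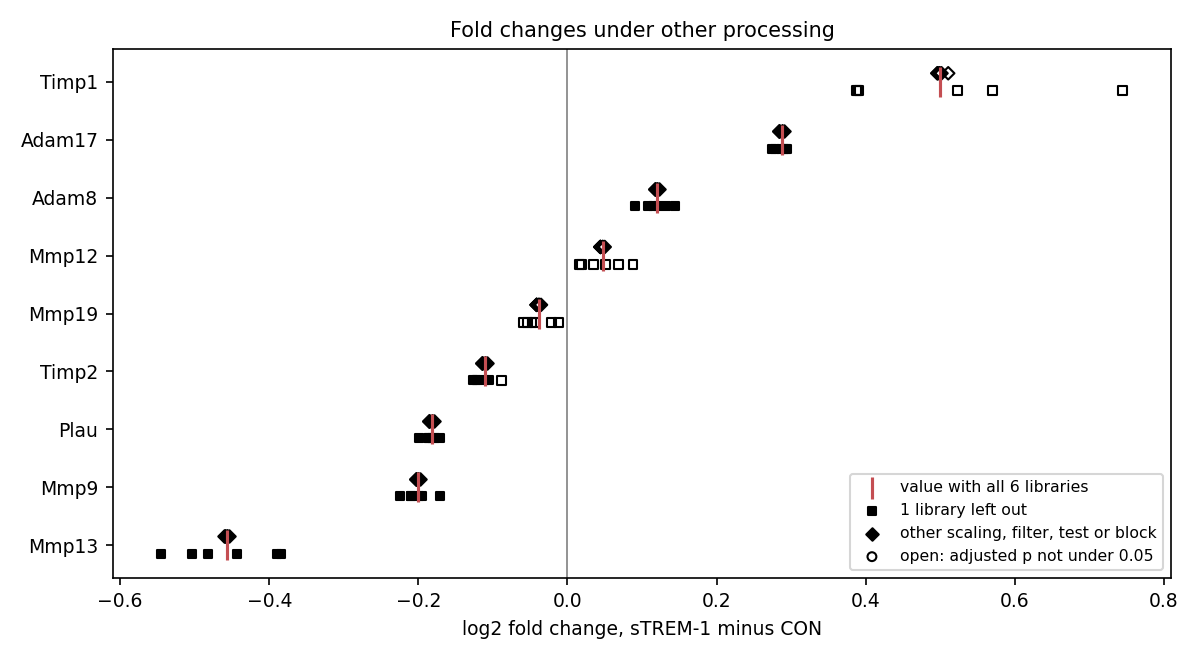
Log2 fold change (horizontal axis, sTREM-1 minus CON) of the 9 tested genes with all 6 libraries (red lines), with 1 library left out (squares) and with another scaling, filter, test or a replicate block (diamonds). Open symbols did not reach an adjusted p under 0.05 or, for Timp1 in DESeq2, had no adjusted p. No gene crossed 0, Adam17 stayed between 0.27 and 0.29, Mmp13 ranged from -0.54 to -0.38, and Timp2 had 1 open symbol.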

How the data were processed

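RNA was taken from BV2 cells grown in six-well plates, with 3 CON and 3 sTREM-1 libraries grouped by their GEO labels. The authors' methods give a higher n for this experiment than the 3 libraries per group analysed here. The deposited table holds raw counts per gene symbol, 1 column per library. The authors checked reads with FastQC and quantified them with RSEM, and the submitters' processing notes name HISAT2 2.0.4 and the human builds hg19 and GRCh38, although the symbols are those of mouse genes. The mouse build, annotation and strand setting are not given in the sources used here, so coordinates come from GENCODE M21 and RefSeq (GRCm38) by symbol.

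Counts were analysed with edgeR 4.0.16 in R 4.3.3: filterByExpr with a minimum count of 10, TMM scaling, and the quasi-likelihood test on all 6 libraries without a covariate. Adjusted p-values cover 14120 genes, and the threshold was 0.05. Of the 46095 genes, 23335 were at 0 in all libraries. CPM uses TMM-scaled library sizes. DESeq2 1.42.0, the exact test of edgeR, other scalings and filters, a replicate block and leaving out each library were alternatives. The script was tested on simulated data. No 2 libraries agreed within sampling noise: chi-square per gene was 3.45 to 4.99 within groups and 20.3 to 22.3 between them.

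The genes and related lists were chosen with earlier results of these data known. The text names all 10 genes, up to 4 called genes per direction and list with the smallest p and at least 1 CPM, the partner genes Trem1, Plaur, Adam10, Timp3, Rhbdf2, Furin and Tnf, and the markers Aif1, Itgam and Csf1r. Exceptions are marked, and 1 further partner gene is not reported here.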

Additional observations from a re-analysis of the deposited data

How the results depend on the processing

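The directions of the 9 tested genes were the same under all 12 alternatives: DESeq2, the exact test of edgeR, another scaling, 2 other filters, a replicate block and leaving out each of the 6 libraries. The calls were the same too, except that of Timp2, which was lost without CON replicate 2. DESeq2 gave no adjusted p for Timp1, so that alternative made no call for it. Leaving out single libraries gave 3608 to 3863 called genes in the table against 4312, with 2 of the proteases and inhibitors higher and 3 to 4 lower. Requiring a change of at least 1.5-fold left 301 called genes in the table, 0 of the proteases and inhibitors higher and 0 lower. The labels name no batch shared by libraries of the same number. Correlations of deviations between such libraries were -0.018, -0.033 and -0.014, which cannot show whether they were handled together. A replicate block gave 4613 called genes, the same calls of the 9 genes and 2 called ADAMTS genes in place of 1. Without filtering Mmp14 had a log2 fold change of 0.45 and an adjusted p of 0.797 by edgeR. Called ADAMTS genes were also 2 without CON replicate 3, called genes of the plasminogen list 3 without sTREM-1 replicate 2 in place of 5, and those of the activator list 5 without sTREM-1 replicate 3 in place of 3. Counts of 13 to 74 per group limit Mmp14 and Timp1. The cause of these moves was not tested.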
